A study of Rattus norvegicus albus with 14 samples.

Results

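Late cultures, labelled as heart muscle cells, were compared with all half-hour cultures, the DMSO culture included. The aim was to find the genes that separated the late libraries from the early ones. The 4 late libraries had 24 or 48 h with rosiglitazone (2 each) and the 3 half-hour libraries had DMSO (1) or rosiglitazone (2) for 0.5 h. They were grouped by time label and make up all 7 libraries of the series, deposited as 14 samples (2 splits of each library). The comparison and the gene lists below were chosen with earlier results of these data known, so the list counts are a description. Cells in every group came from the ventricles of 1-day-old Sprague-Dawley rats, were pooled, preplated against fibroblasts and plated on fibronectin. Every dish received 1% DMSO, and the rosiglitazone dishes also received 10 µmol/L of the drug. A late culture with DMSO alone was not analysed here. In every value below, the drug and the hours in culture therefore cannot be told apart. Whether the libraries of a group stem from separate cultures is not stated in the labels. The p-values then reflect only how much these libraries differ, which may be technical.

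Rosiglitazone is a thiazolidinedione that binds and activates PPARγ, a nuclear receptor which pairs with RXR on DNA and switches on genes of fatty acid uptake, storage and oxidation. Neonatal ventricular myocytes beat and still divide to some extent in the days after birth. Immediate early genes, the stretch-sensing cofactor YAP and the actin-sensing factor SRF are known to take part when cells adhere and spread.

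The late libraries were less alike than the half-hour libraries. Total counts were 10886559 to 28074620 per library, and the 2 splits of each library were summed, since they agreed within sampling noise (chi-square divided by its degrees of freedom was 0.963 to 1.02). The median gene differed by 0.24 to 0.28 on the log2 scale between any 2 half-hour libraries, DMSO and rosiglitazone alike, and by 0.44 to 0.68 between any 2 late libraries. It differed by 0.62 to 0.76 between a late and a half-hour library. Replicate 1 of 24 h stood as far from replicate 2 of 24 h (0.67) and from replicate 1 of 48 h (0.68) as late libraries stood from early ones.

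**Figure D1:**
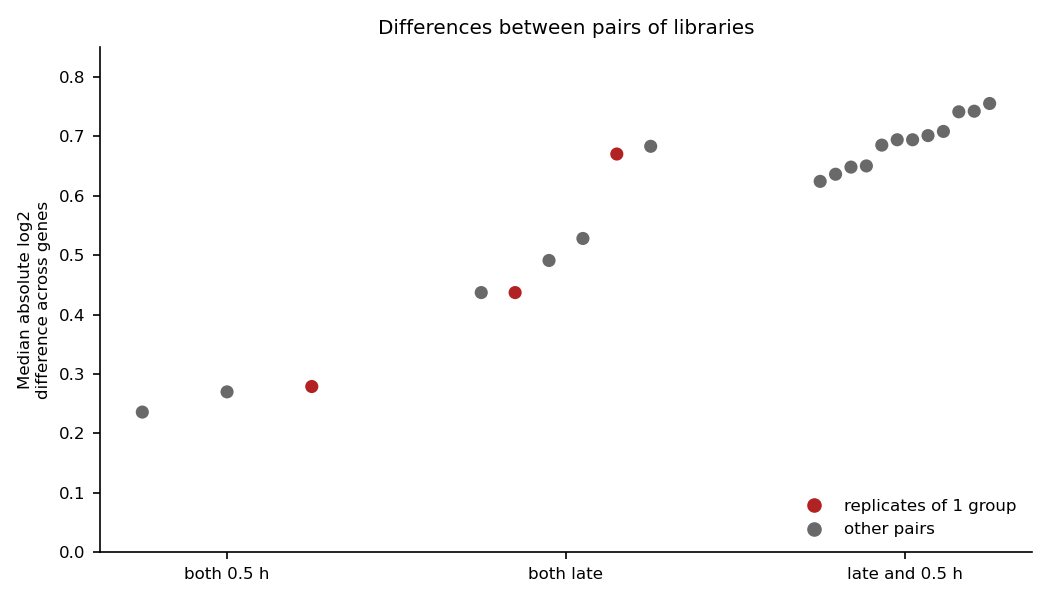
Each point is 1 pair of libraries, placed by the median absolute log2 difference in CPM across the 13943 genes tested; red points are replicates of 1 group. Pairs of half-hour libraries lie at 0.24 to 0.28, pairs of late libraries at 0.44 to 0.68, and mixed pairs at 0.62 to 0.76.

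Of 13943 genes tested with edgeR's quasi-likelihood test, 2387 (17.1%) had a Benjamini-Hochberg adjusted p under 0.05, the threshold used throughout. Of all genes, 8.47% (1181) rose and 8.65% (1206) fell, which are the shares against which each list below is read. The falls were deeper than the rises. The median log2 fold change, late minus half-hour, was 0.99 among genes that rose and -1.89 among genes that fell, or -1.83 with the 84 genes that had no count in any late library set at their bound of 3 counts in the shallowest one. All 4 late libraries lay above all 3 half-hour libraries for 2261 genes (16.2%) and below them for 2810 (20.2%). Of the 2387 genes past the threshold, 2370 were separated in this way. The median log2 fold change over all genes was -0.02. At an unadjusted edgeR p under 0.05, 4602 of the 13943 genes passed in one direction or the other. DESeq2 called 1680 genes higher and 1910 lower. List counts below at these settings are to be read against these totals.

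The number of calls depended on single libraries. With 1 library left out in turn it was 366 without replicate 1 of rosiglitazone 0.5 h, 526 without DMSO, 724 without replicate 2 of rosiglitazone 0.5 h, 1140 without replicate 2 of 48 h and 4013 without replicate 1 of 24 h. A total of 119 genes (0.853%) rose and 220 genes (1.58%) fell in the fit of all 7 libraries and again in each of the 7 fits without 1 library. These are called lasting calls below. Of the genes that rose and are named below, Rsad2, Ces1f, Vat1l, Ret, Hpx, Cyp4b1, Cdh20, Hadhb, Etfa, Tfrc, Cyp1b1, Sdf2l1, Hspa5, Isg15, Cxcl6, Cxcl3, Cxcl10, Esrra, Srebf1, Insig1, Dcn, Hspe1, Cdkn2b, Npc2, Psmb6, Rpl4, Bhlhe40, Cry1, Vegfa, Acadl, Ahrr and Aldh3a1 did not have a lasting call. Of those that fell, Carns1, Reps2, Pkd1l1, Kif14, Lsmem1, Ercc6l, Fign, Vnn1, Pdia4, Tcap, Myom1, Myom2, Actn2, Kcnd3, Ryr2, Mt-atp8, Mt-nd4l, Pdha1, Abca1, Plk2, Bcl2, Col1a1, Dusp1 and Mki67 did not. Each of these calls was lost without at least 1 of the half-hour libraries. Of the 36 gene lists with any call, 34 had their lowest count without replicate 1 of rosiglitazone 0.5 h and 34 had their highest without replicate 1 of 24 h (ties included).

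**Figure D2:**
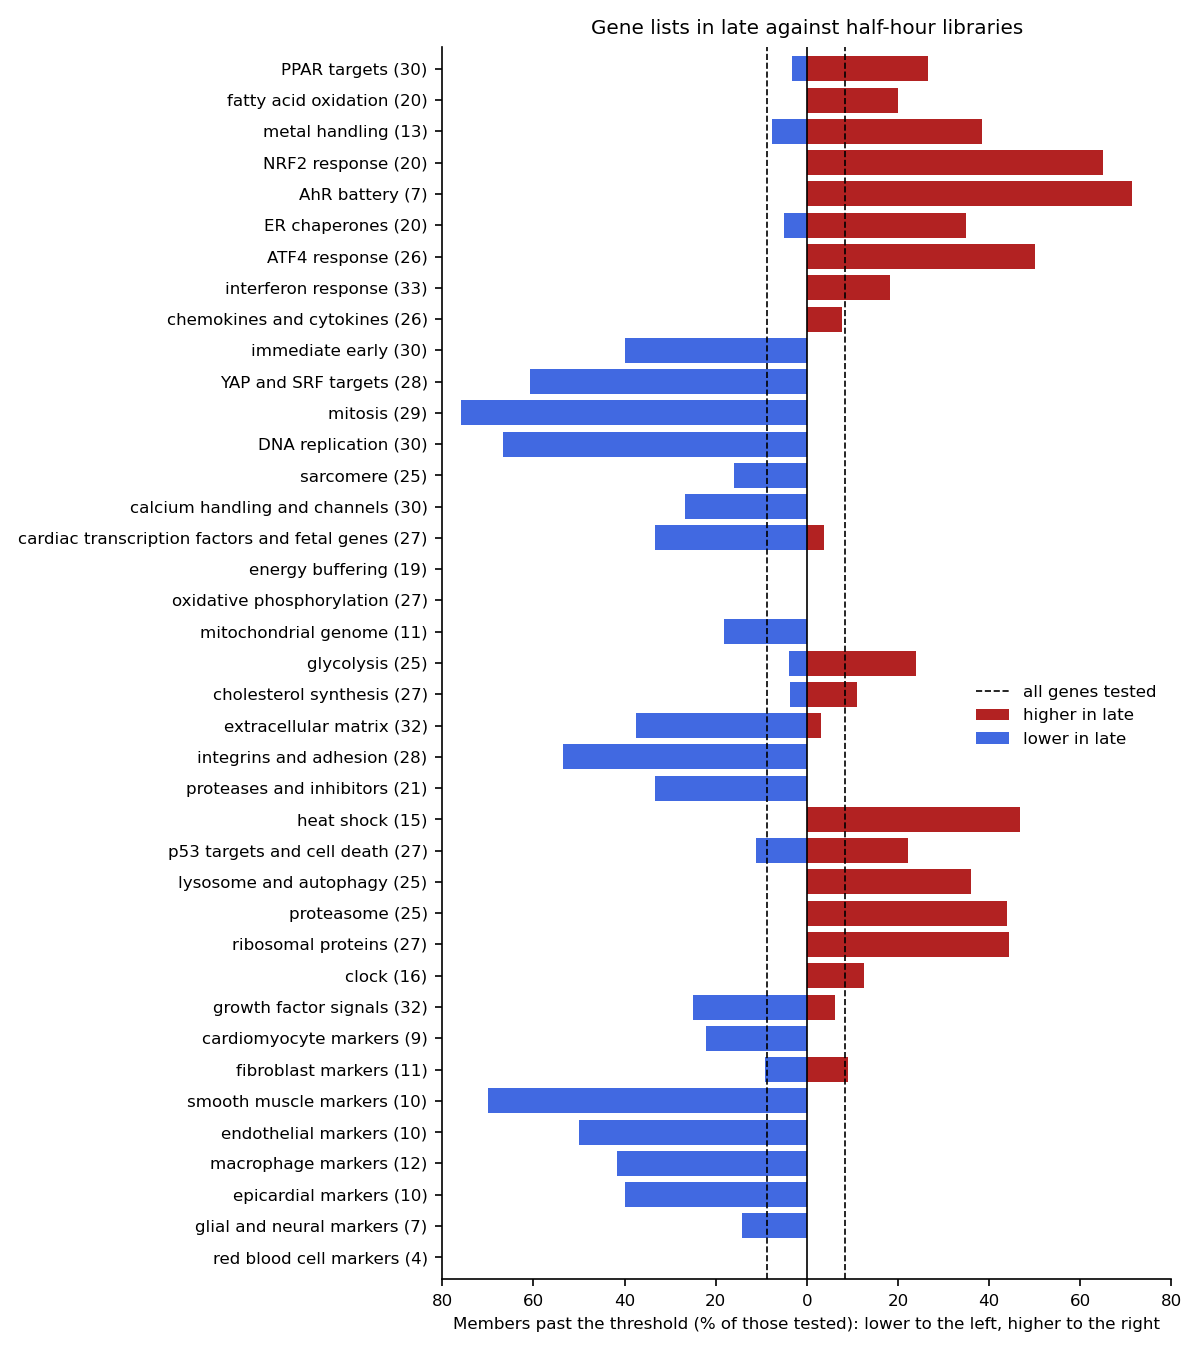
Bars give the percentage of tested members of each list (number in brackets) past the threshold, higher in late libraries to the right and lower to the left; dashed lines mark the shares over all genes, 8.47% and 8.65%. The NRF2 and AhR lists reach furthest to the right, mitosis and smooth muscle markers furthest to the left.

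Per-gene levels below are CPM values (counts scaled to a common library size) after TMM scaling, listed in a fixed order: DMSO, then replicates 1 and 2 of rosiglitazone 0.5 h, and for the late libraries replicates 1 and 2 of 24 h, then replicates 1 and 2 of 48 h. The genes with the smallest p-values were Acot2, Itga11 and Nfu1, picked for that after their values were seen. Acot2, which encodes a mitochondrial thioesterase that releases free fatty acid from acyl-CoA, was at 28.9, 23.2 and 29.4 CPM in the half-hour libraries and 384, 537, 462 and 673 CPM in the late ones (log2 fold change 4.24 ± 0.26 SE, adjusted p = 0.0012). All 4 late libraries lay far above all 3 early ones. The collagen-binding integrin Itga11 went from 39.9, 66.8 and 50.7 CPM to 1.36, 2.61, 1.31 and 1.12 CPM (log2 fold change -5.01 ± 0.36 SE, adjusted p = 0.0019). Nfu1, a mitochondrial iron-sulfur cluster scaffold, was at 35.9, 38.5 and 40.1 CPM early and 153, 164, 144 and 165 CPM late (log2 fold change 2.04 ± 0.15 SE, adjusted p = 0.0019), with little spread in either group.

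Genes of PPAR and fatty acid metabolism rose in part. Of 30 tested PPAR targets, 8 rose and 1 fell (median log2 fold change 0.50), and 4 of the rises were lasting calls. Angptl4, whose secreted product blocks lipoprotein lipase, stood at 95.4, 35.8 and 42.9 CPM early and 548, 419, 840 and 652 CPM late (log2 fold change 3.40 ± 0.42 SE, adjusted p = 0.0049). The DMSO library was the highest of the early ones and still lay below every late library. Hadha and Hadhb, the subunits of the mitochondrial trifunctional enzyme of β-oxidation, also rose. Hadha went from 399, 359 and 397 to 977, 877, 819.9 and 979 CPM (log2 fold change 1.25 ± 0.17 SE, adjusted p = 0.0053). Hadhb went from 504, 441 and 529.7 to 1666, 1335, 924 and 1145 CPM, most at 24 h (log2 fold change 1.37 ± 0.23 SE, adjusted p = 0.0096). Acot1, whose sequence is so close to Acot2 that reads may be shared between them, rose by 3.26 on the log2 scale.

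Other genes on the same list did not pass. Pdk4, the kinase that shuts off pyruvate dehydrogenase, was at 10.4, 14.4 and 21.7 CPM early and 22.01, 39.02, 27.1 and 26.6 CPM late; the groups did not overlap, but the adjusted p was 0.086. The lipid droplet coat gene Plin2 (248, 193 and 209 against 274, 224, 517 and 286 CPM, adjusted p = 0.2) and Fabp4, which encodes a fatty acid binding protein (64.5, 18.4 and 25.2 against 36.8, 10.8, 7.76 and 24.6 CPM, adjusted p = 0.36) overlapped between the groups. Cpt1a, which encodes the entry step of fatty acids into mitochondria, was at 168, 151 and 167 against 178, 142, 174 and 113 CPM (log2 fold change -0.10 ± 0.19 SE, adjusted p = 0.77). The pantetheinase gene Vnn1 fell from 94.5, 87.3 and 111 to 60.9, 16.3, 34.1 and 27.6 CPM (log2 fold change -1.49 ± 0.38 SE, adjusted p = 0.032). Of 20 fatty acid oxidation genes, 4 rose (Hadha, Hadhb, Etfa and Acadl, the last named after its value was seen) and 0 fell in the edgeR test, with a median of 0.48. At an unadjusted p under 0.05, 1 of the 20 was lower, and DESeq2 also called 1 lower, where it called 1910 of all 13943 genes lower.

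**Figure D3:**
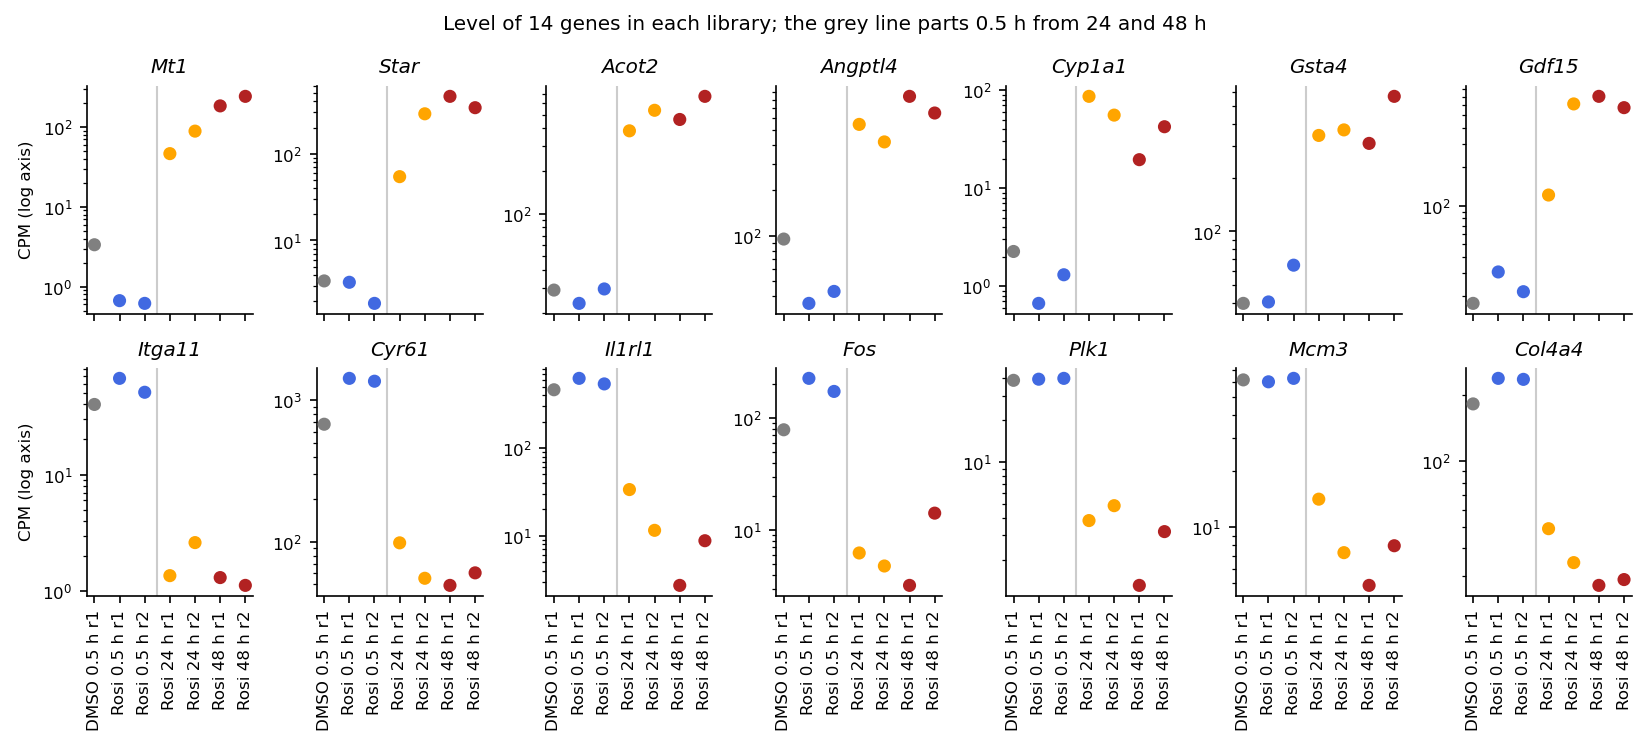
CPM of 14 genes in the 7 libraries on log axes (grey DMSO 0.5 h, blue rosiglitazone 0.5 h, orange 24 h, red 48 h). In the upper row all 4 late libraries lie above the 3 half-hour libraries, in the lower row all 4 lie below.

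Among the largest increases were genes of metal binding, calcium binding, steroid supply and drug metabolism. Mt1, a metallothionein that binds zinc and copper, was at 3.35, 0.666 and 0.616 CPM early and 46.5, 89.0, 184 and 243 CPM late (log2 fold change 6.50 ± 0.91 SE, adjusted p = 0.0059). Its relative Mt2A went from 20.1, 8.42 and 9.49 to 191, 352, 987 and 1078 CPM (log2 fold change 5.68 ± 0.76 SE, adjusted p = 0.0056). For both genes DMSO was the highest early library and the 48 h libraries were the highest late ones. Of 13 metal-handling genes, 5 rose and 1 fell (median 0.61). The transferrin receptor gene Tfrc rose (140, 128 and 113 to 284, 350.2, 348 and 190.1 CPM, log2 fold change 1.20 ± 0.24 SE, adjusted p = 0.014), and the zinc importer Slc39a10 fell (75.2, 86.2 and 76.03 to 27.9, 36.6, 27.6 and 38.03 CPM, log2 fold change -1.28 ± 0.19 SE, adjusted p = 0.0063). The zinc exporter Slc30a1, which cells use to lower cytosolic zinc, was at 60.2, 28.8 and 32.1 against 21.6, 52.7, 40.6 and 33.2 CPM, with an adjusted p of 0.84.

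Star, which carries cholesterol into mitochondria for steroid synthesis, was at 3.42, 3.297 and 1.88 CPM early and 54.4, 288, 458 and 339 CPM late (log2 fold change 6.63 ± 0.78 SE, adjusted p = 0.0045). Replicate 1 of 24 h had the smallest rise. Pvalb, the calcium buffer parvalbumin of fast muscle and some neurons, was near the lower limit of detection early (0.317, 0.281 and 0.254 CPM, where 3 counts are 0.107 CPM in the deepest library) and reached 13.1, 8.94, 43.9 and 74.5 CPM (log2 fold change 6.92 ± 0.94 SE, adjusted p = 0.0057). Ret, a receptor tyrosine kinase, was at 0 counts in DMSO and went to 2.90, 16.8, 52.6 and 73.1 CPM from 0, 1.16 and 1.05 CPM (log2 fold change 5.61 ± 1.37 SE, adjusted p = 0.028).

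The remaining genes among the 12 largest rises were Rsad2, Ces1f, Vat1l, Hpx, Cyp1a1, Cyp4b1 and Cdh20, with log2 fold changes from 5.02 to 6.19. Ces1f (a carboxylesterase, at 10.7, 25.9, 188 and 34.2 CPM late) and Hpx (the heme carrier hemopexin, at 3.998, 29.02, 384 and 52.7 CPM) were far higher in replicate 1 of 48 h than in the other late libraries. In replicate 1 of 24 h Hpx lay just above its early level of 2.89, 3.37 and 2.39 CPM, and its call (log2 fold change 5.35 ± 1.44 SE, adjusted p = 0.038) was not a lasting one.

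Of 7 tested genes of the aryl hydrocarbon receptor (AhR), a sensor of planar ring compounds, and its targets, 5 rose. All 7, the receptor gene included, had a positive log2 fold change (median 1.87). Cyp1a1, the classical target, was at 2.25, 0.666 and 1.305 CPM early and 86.2, 55.5, 19.5 and 42.2 CPM late (log2 fold change 5.17 ± 0.65 SE, adjusted p = 0.005); both 24 h libraries were above both 48 h libraries. Cyp1b1 went from 426, 299.7 and 314 to 791, 968, 1749 and 752 CPM (log2 fold change 1.62 ± 0.33 SE, adjusted p = 0.017). The others were Nqo1, Ahrr and Aldh3a1, the last pair named after their values were seen. The receptor gene itself, Ahr, was at 160.2, 141 and 109 CPM early and 86.4, 89.8, 266 and 116 CPM late (adjusted p = 0.96).

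Antioxidant genes controlled by NRF2 rose in 13 of 20 cases, and all 20 had a positive log2 fold change (median 1.59); 7 were lasting calls. The glutathione transferase Gsta4 went from 39.6, 40.4 and 64.8 to 344, 369, 310.5 and 569 CPM (log2 fold change 3.04 ± 0.30 SE, adjusted p = 0.0044). Nqo1, a quinone reductase, went from 186, 113 and 134 to 686, 678, 903 and 598 CPM (log2 fold change 2.32 ± 0.25 SE, adjusted p = 0.0044). The autophagy receptor Sqstm1 went from 588, 433 and 549 to 2014, 2984, 2600 and 2924 CPM (log2 fold change 2.33 ± 0.23 SE, adjusted p = 0.0044). In all 3 genes the lowest late library lay well above the highest early one. Hmox1, the heme oxygenase also on the list, was at 424, 184 and 228 CPM early and 392, 476, 448 and 356 CPM late, with DMSO inside the late range (adjusted p = 0.2).

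Genes of the amino acid and integrated stress response under ATF4 rose in 13 of 26 cases (median 0.68), 3 of them lasting. Gdf15, a stress-released cytokine of the TGF-β family, was at 17.5, 30.6 and 21.5 CPM early and 121, 614, 703 and 574 CPM late (log2 fold change 4.44 ± 0.61 SE, adjusted p = 0.0058). Replicate 1 of 24 h lay far below the other late libraries and still above all early ones. Ddit3, the stress transcription factor CHOP, went from 41.2, 45.4 and 59.4 to 134, 320.1, 198 and 326 CPM (log2 fold change 2.33 ± 0.34 SE, adjusted p = 0.0066), and Slc3a2, the heavy chain of several amino acid transporters, from 402, 363 and 366 to 803, 1672, 1696 and 1274 CPM (log2 fold change 1.85 ± 0.28 SE, adjusted p = 0.0068). Asns, asparagine synthetase, was separated without overlap (239.9, 224 and 242 against 278, 336, 418 and 313 CPM) but had an adjusted p of 0.084.

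Part of the genes of protein folding and breakdown rose. Of 20 genes of chaperones, stress sensors and protein breakdown in the endoplasmic reticulum (ER), 7 rose and 1 fell (median 0.63). Hspa5, the main ER chaperone BiP, went from 1442, 1557 and 1501 to 3300, 4749, 2729 and 3461 CPM (log2 fold change 1.25 ± 0.23 SE, adjusted p = 0.012), and Dnajb9, its co-chaperone, from 68.2, 63.9 and 74.98 to 266, 357, 186 and 193 CPM (log2 fold change 1.86 ± 0.26 SE, adjusted p = 0.0058). The disulfide isomerase gene Pdia4 fell from 372, 367 and 411 to 285, 208, 198 and 284 CPM (log2 fold change -0.65 ± 0.19 SE, adjusted p = 0.046). Of 15 heat shock genes 7 rose and all 15 had a positive log2 fold change (median 0.70). They included the small heat shock protein gene Hspb8 (74.7, 82.2 and 79.2 to 231, 423, 322 and 314 CPM, log2 fold change 2.04 ± 0.23 SE, adjusted p = 0.0044) and the mitochondrial chaperonin pair Hspd1 (log2 fold change 1.06) and Hspe1 (1.27).

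Proteasome subunits rose in 11 of 25 cases by 0.50 to 1.08 on the log2 scale (median of the list 0.55), and 25 of 25 had a positive sign. Psmb6, a catalytic subunit of the core, went from 48.2, 38.2 and 57.1 to 126, 88.1, 79.8 and 111 CPM (log2 fold change 1.08 ± 0.23 SE, adjusted p = 0.017). Ribosomal protein genes rose in 12 of 27 cases by 0.77 to 1.49 (median 0.89), again with all 27 positive. Rpl4 went from 1697, 1564 and 1997 to 3934, 2969, 3467 and 4959 CPM (log2 fold change 1.13 ± 0.23 SE, adjusted p = 0.017). Neither list had a lasting call. With 48 h alone as the late group 16 proteasome and 23 ribosomal genes rose, where 14.4% of all genes did. Ribosomal protein genes have many processed copies in the genome, among which reads may be divided.

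Lysosome and autophagy genes rose in 9 of 25 cases (median 0.36). Besides Sqstm1 they included the sialidase Neu1 (27.03, 29.6 and 33.4 to 72.2, 87.8, 89.02 and 82.8 CPM, log2 fold change 1.47 ± 0.17 SE, adjusted p = 0.0044) and the cholesterol carrier Npc2 (223, 176 and 223 to 557, 353, 428 and 499 CPM, log2 fold change 1.15 ± 0.21 SE, adjusted p = 0.011). On a mixed list of p53 targets and other genes of growth arrest and cell death, 6 of 27 rose and 3 fell (median 0.42). Gadd45a, a growth arrest gene, went from 60.4, 68.9 and 69.9 to 204, 359.5, 514 and 414 CPM (log2 fold change 2.49 ± 0.31 SE, adjusted p = 0.0049). The cell cycle inhibitor Cdkn2b rose from 37.3, 38.7 and 48.96 to 108, 114, 299 and 131 CPM (log2 fold change 1.97 ± 0.39 SE, adjusted p = 0.014), and the survival gene Bcl2 fell from 4.62, 7.61 and 4.64 to 2.15, 0.796, 0.911 and 0.937 CPM (log2 fold change -2.22 ± 0.56 SE, adjusted p = 0.03).

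Part of the genes of glucose use rose, while the listed genes of mitochondrial energy supply mostly did not pass. Of 25 glycolysis and glucose entry genes, 6 rose and 1 fell (median 0.31). Without replicate 1 of 24 h 6 rose and 6 fell, where 1832 and 2181 of all 13798 genes tested did. The glucose transporter Slc2a1 went from 125, 88.1 and 120 to 318, 359, 705 and 538 CPM (log2 fold change 2.11 ± 0.32 SE, adjusted p = 0.0066) and hexokinase Hk2, the first step of glycolysis, from 76.2, 61.9 and 69.6 to 167, 262, 326 and 247 CPM (log2 fold change 1.86 ± 0.24 SE, adjusted p = 0.0053). Pdha1, a subunit of pyruvate dehydrogenase, fell from 235, 232 and 244 to 177, 154, 125 and 104 CPM (log2 fold change -0.76 ± 0.20 SE, adjusted p = 0.034). Of 27 nuclear oxidative phosphorylation genes (median 0.06) and 19 genes of energy buffering and the citric acid cycle (median -0.20), 0 passed by edgeR. At an unadjusted p under 0.05 they were 1 (higher) and 0, where 4602 of all 13943 genes passed. DESeq2 called 0 in both, where it called 3590 of all genes. The smallest adjusted p were 0.14 (Ndufb3, 18.8, 22.7 and 25.2 against 48.5, 25.4, 25.02 and 48.1 CPM) and 0.26 (Ckb, 126, 102 and 131 against 128, 33.4, 12.3 and 50.2 CPM). Leaving out replicate 1 of 24 h gave 6 falls in the first list and 9 in the second, to be read against the same 2181 of 13798 genes.

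Of 11 genes of the mitochondrial genome, 2 fell (Mt-atp8 and Mt-nd4l, which overlap their neighbours on the genome, so that reads may be shared), and 10 had a negative sign (median -0.85). The 12 matched genes took 1.80% to 2.01% of counts in the half-hour libraries, 2.96% and 0.737% at 24 h, and 0.831% and 0.562% at 48 h. The 24 h replicates thus lay on both sides of the early range. Without replicate 1 of 24 h 10 of the 11 fell, where 2181 of all 13798 genes tested did. Of 27 genes of cholesterol synthesis and transport, 3 rose (Star, Srebf1 and Insig1) and 1 fell (Abca1, 175, 160 and 202 to 126, 103, 95.7 and 80.8 CPM), with a median of -0.11. Without replicate 1 of 24 h 3 rose and 10 fell, where 1832 and 2181 of all 13798 genes did. With 48 h alone as the late group 3 rose and 9 fell, where 14.4% of all genes rose and 18.2% fell.

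Interferon-stimulated genes rose in 6 of 33 cases and 0 fell by edgeR (3 fell by DESeq2 and 3 at an unadjusted p under 0.05), and the median of the list was 0.11. DESeq2 called 1910 of all 13943 genes lower. With 48 h alone as the late group 7 rose and 10 fell, where 14.4% of all genes rose and 18.2% fell. Rsad2, the antiviral enzyme viperin, was at 4.898, 4.49 and 6.92 CPM early and 14.8, 41.5, 977 and 552 CPM late (log2 fold change 6.19 ± 1.49 SE, adjusted p = 0.027). Isg15, a ubiquitin-like modifier, went from 5.53, 6.21 and 5.65 to 21.2, 18.8, 44.1 and 69.1 CPM (log2 fold change 2.72 ± 0.49 SE, adjusted p = 0.011). Cxcl10, a T cell attractant, stood at 5.99, 4.805 and 5.83 CPM early and 9.45, 10.8, 189 and 113 CPM late (log2 fold change 3.86 ± 1.10 SE, adjusted p = 0.045). In all 3 genes both 48 h libraries lay above both 24 h libraries, and none of the 6 calls was lasting. Of 26 chemokines and cytokines 2 rose (7.69%, against 8.47% of all genes), which were Cxcl6 (30.3, 16.3 and 16.8 to 91.8, 34.2, 146 and 111 CPM) and Cxcl3 (16.1, 12.98 and 10.2 to 47.98, 35.4, 550.1 and 96.96 CPM, of which 1 library held most). With 48 h alone as the late group 11 of the 26 rose, where 14.4% of all genes did. Without replicate 2 of 24 h 7 rose, where 1220 of all 13791 genes did.

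Among growth factor signals 8 of 32 fell and 2 rose (median -0.92). Tgfb2 went from 163, 274 and 195 to 67.9, 37.2, 32.2 and 47.7 CPM (log2 fold change -2.19 ± 0.29 SE, adjusted p = 0.0054), Bmp4 from 32.8, 47.8 and 49.5 to 15.6, 11.2, 7.21 and 10.6 CPM (log2 fold change -1.96 ± 0.29 SE, adjusted p = 0.0066) and Hbegf, a ligand of the EGF receptor, from 28.8, 41.6 and 27.3 to 10.1, 5.76, 8.67 and 5.06 CPM (log2 fold change -2.13 ± 0.32 SE, adjusted p = 0.0066). The angiogenic factor Vegfa rose with Gdf15 (123, 246 and 146 to 254, 457, 912 and 444 CPM, log2 fold change 1.59 ± 0.44 SE, adjusted p = 0.041). Of 16 clock genes 2 rose (Bhlhe40 and Cry1), both by less than 1 on the log2 scale. Without replicate 2 of 24 h 0 rose and 1 fell, where 1220 and 1147 of all 13791 genes did.

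Immediate early genes, which are induced within minutes of a stimulus and fade within hours, fell in part. Of 30, 12 fell and 0 rose (median -0.88), with 6 of the falls lasting. A positive log2 fold change was found in 11 of the 30. At an unadjusted p under 0.05, and also by DESeq2, 2 were higher and 15 lower. Over all 13943 genes, 4602 passed the unadjusted threshold in one direction or the other. DESeq2 called 1680 of them higher and 1910 lower. Fos was at 78.5, 226 and 173 CPM early and 6.24, 4.77, 3.21 and 14.2 CPM late (log2 fold change -4.52 ± 0.56 SE, adjusted p = 0.0049), and Fosb at 123, 91.4 and 30.3 against 4.44, 1.93, 1.02 and 2.62 CPM (log2 fold change -5.03 ± 0.61 SE, adjusted p = 0.0049); they encode partners of Jun in the AP-1 factor. Egr1, a zinc finger factor of the growth factor response, went from 486, 1007 and 627 to 60.4, 31.4, 80.2 and 87.03 CPM (log2 fold change -3.45 ± 0.39 SE, adjusted p = 0.0044). The early level differed among the half-hour libraries, since DMSO was the lowest of the 3 for Fos and Egr1 and the highest for Fosb. Dusp1, a phosphatase of MAP kinases, was at 43.7, 118 and 99.9 CPM early, and its lowest early library, DMSO, lay just above its highest late one among 17.4, 19.5, 40.7 and 34.7 CPM (log2 fold change -1.64 ± 0.41 SE, adjusted p = 0.029).

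Targets of YAP and SRF fell in 17 of 28 cases, all 28 had a negative log2 fold change (median -2.12), and 8 of the falls were lasting. Cyr61, the standard YAP target, went from 678, 1431 and 1366 to 98.5, 55.3, 49.3 and 60.4 CPM (log2 fold change -4.14 ± 0.35 SE, adjusted p = 0.0039). The actin crosslinker Flna went from 2373, 2812 and 2239 to 506, 603, 696 and 506 CPM (log2 fold change -2.10 ± 0.20 SE, adjusted p = 0.0044) and tropomyosin Tpm4 from 673, 848 and 746 to 213, 239, 240.5 and 252 CPM (log2 fold change -1.68 ± 0.16 SE, adjusted p = 0.0044). In the last pair the late libraries lay within a narrow range. Edn1, the vasoconstrictor endothelin-1, was at 19.9, 68.7 and 51.8 CPM early and at 0.615, 0, 1.02 and 0.937 CPM late, with no count in replicate 2 of 24 h.

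In the fit of all 7 libraries mitosis genes gave the highest share of falls among the 39 lists. Of 29 mitosis genes 22 fell (median -3.18), 7 of them lasting calls, and 28 lay below all early libraries in all late ones. With no filter 14 of the 29 fell, and 21 of 30 DNA replication genes did, where 1091 of all 18511 genes fell. Plk1, a kinase of mitotic entry, was at 38.7, 39.4 and 39.97 CPM early and 3.82, 4.89, 1.31 and 3.19 CPM late (log2 fold change -3.57 ± 0.41 SE, adjusted p = 0.0044). Cdc20, which switches on the anaphase-promoting complex, stood at 62.8, 62.3 and 57.04 against 12.9, 8.11, 4.26 and 3.75 CPM (log2 fold change -3.05 ± 0.42 SE, adjusted p = 0.0057), and the spindle protein gene Tpx2 at 94.8, 96.8 and 84.3 against 19.5, 9.89, 8.09 and 10.2 CPM (log2 fold change -2.95 ± 0.31 SE, adjusted p = 0.0044). Mki67, the common marker of cycling cells, was uneven early (152, 187 and 36.7 CPM, lowest in replicate 2 of rosiglitazone) and at 26.4, 6.29, 1.24 and 5.902 CPM late (log2 fold change -3.65 ± 0.93 SE, adjusted p = 0.031); in replicate 1 of 24 h it came near that early library.

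DNA replication genes fell in 20 of 30 cases (median -1.83, 7 lasting). Mcm3, a subunit of the replicative helicase, went from 61.7, 60.3 and 62.9 to 14.2, 7.31, 4.88 and 7.96 CPM (log2 fold change -2.84 ± 0.34 SE, adjusted p = 0.0045), and Mcm4 from 87.6, 86.1 and 74.04 to 28.2, 24.7, 12.7 and 16.8 CPM (log2 fold change -2.0 ± 0.28 SE, adjusted p = 0.0058). Mcm10, which helps to start the helicase, went from 17.6, 21.1 and 17.03 to 1.84, 1.82, 0.801 and 1.59 CPM (log2 fold change -3.62 ± 0.38 SE, adjusted p = 0.0044). Lmnb1, lamin B1 of the nuclear envelope, had one of the smallest p-values of all genes and was picked for that after its values were seen. It was at 68.3, 68.05 and 59.6 CPM early and 14.5, 12.7, 17.7 and 13.3 CPM late (log2 fold change -2.16 ± 0.19 SE, adjusted p = 0.004). Kif14 and Ercc6l, also known from mitosis, were among the 12 largest falls. Kif14 was at 15.7, 14.7 and 6.02 CPM early and had no count in 2 of the 4 late libraries; Ercc6l, at 17.6, 17.9 and 12.7 CPM early, had counts in replicate 1 of 24 h alone (1.89 CPM) and did not pass in DESeq2 (adjusted p = 0.13).

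The other large falls were those of Carns1 (carnosine synthase), Reps2, Pkd1l1, Il1rl1, Lrrn4, Lsmem1 and Fign. Il1rl1, the receptor of interleukin-33, was at 460.1, 620.3 and 536 CPM early and 33.6, 11.6, 2.73 and 8.81 CPM late (log2 fold change -5.24 ± 0.74 SE, adjusted p = 0.006). Carns1 went from 10.7, 15.99 and 7.54 CPM to 0.395 CPM in replicate 1 of 24 h and no count in the other late libraries. Reps2 and Pkd1l1 likewise had counts in 1 late library each. With so few counts their fitted fold changes depend on the prior and are not given.

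Matrix and adhesion genes fell in part. Of 32 matrix genes 12 fell and 1 rose (median -0.91), and the list took 9.64% to 10.5% of counts in the half-hour libraries and 4.49% to 6.82% in the late ones. Col4a4, a basement membrane collagen, went from 183, 239 and 237 to 49.2, 34.5, 27.1 and 28.9 CPM (log2 fold change -2.65 ± 0.24 SE, adjusted p = 0.0044). The microfibril protein gene Fbn1 went from 2199, 2648 and 2316 to 607, 784, 379 and 582 CPM (log2 fold change -2.02 ± 0.25 SE, adjusted p = 0.0049), and the collagen crosslinking enzyme Lox from 567, 556 and 605 to 178, 42.7, 91.7 and 51.3 CPM (log2 fold change -2.66 ± 0.46 SE, adjusted p = 0.0098). The exception was decorin (Dcn), a small proteoglycan, which rose from 943, 804 and 991 to 2167, 1721, 8436 and 4583 CPM (log2 fold change 2.21 ± 0.55 SE, adjusted p = 0.029), most in the 48 h libraries.

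Of 28 integrin and adhesion genes 15 fell and 27 had a negative sign (median -1.08). Besides Itga11 they included the laminin receptor Itga7 (104, 106 and 105 to 44.9, 29.97, 27.8 and 31.1 CPM, log2 fold change -1.65 ± 0.20 SE, adjusted p = 0.0045) and the focal adhesion linker Parva (293, 306 and 323 to 164, 109, 134 and 107 CPM, log2 fold change -1.26 ± 0.19 SE, adjusted p = 0.0066). Of 21 proteases and inhibitors 7 fell and 0 rose (median -0.77), and 8 had a positive log2 fold change. With 48 h alone as the late group 10 fell and 5 rose, where 18.2% and 14.4% of all genes did. The 22 matched genes took 0.468% to 0.516% of counts in the half-hour libraries, 0.410% and 0.360% at 24 h, and 0.708% and 0.574% at 48 h. Timp3, an inhibitor of metalloproteinases, went from 119, 117 and 117 to 21.04, 17.2, 3.75 and 20.1 CPM (log2 fold change -2.93 ± 0.49 SE, adjusted p = 0.0092), and Plau, the urokinase, from 65.8, 26.7 and 41.8 to 7.47, 1.63, 1.68 and 5.34 CPM (log2 fold change -3.49 ± 0.60 SE, adjusted p = 0.0099).

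Heart muscle genes had lower medians late, but few passed, and the late libraries differed widely among themselves. All 25 tested sarcomere genes had a negative log2 fold change (median -1.73), and 4 passed: Tcap, Myom2, Actn2 and, named after its value was seen, Myom1. Actn2, the α-actinin of the Z-disc, was at 676, 996 and 995 CPM early and 291, 108, 17.3 and 63.7 CPM late (log2 fold change -2.89 ± 0.76 SE, adjusted p = 0.035). Myh6, the α-myosin heavy chain, was at 959.6, 1207 and 1205 against 387, 90.9, 10.2 and 33.3 CPM; no late library reached an early one, yet the adjusted p was 0.066. Tnnt2, cardiac troponin T, was at 1285, 2095 and 2192 against 3231, 1063, 134 and 953 CPM and was highest of all in replicate 1 of 24 h (adjusted p = 0.72).

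The count of sarcomere genes depended on which late libraries were used. Without replicate 1 of 24 h, 19 fell, where 2181 of all 13798 genes did. Without replicate 2 of 24 h, 1 fell, where 1147 of all 13791 genes did. With 48 h alone as the late group 21 fell (18.2% of all genes did), and with 24 h alone 1 fell (3.69% of all genes fell and 2.0% rose). The 4-group fit, which sets each time apart, gave adjusted p = 0.017 for Myh6 and 0.036 for the β-myosin gene Myh7 (1302, 2901 and 2366 against 719.9, 129.5, 13.1 and 83.9 CPM). Nppa, the atrial natriuretic peptide of the fetal heart, was at 853, 1649 and 1444 CPM early and 1649, 724, 141 and 267 CPM late, with replicate 1 of 24 h level with the highest early library (adjusted p = 0.41).

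Calcium handling and channel genes fell in 8 of 30 cases (median -1.29). None of the 8 calls was lasting: 0 fell without DMSO or without replicate 1 of rosiglitazone 0.5 h (323 and 237 of all genes did). Without replicate 1 of 24 h 19 fell, where 2181 of all 13798 genes did. Ryr2, the calcium release channel of the sarcoplasmic reticulum, went from 255, 408 and 321 to 76.4, 63.5, 9.91 and 23.7 CPM (log2 fold change -2.92 ± 0.61 SE, adjusted p = 0.018), and the potassium channel gene Kcnd3 from 44.9, 51.7 and 40.5 to 5.49, 0.341, 0.437 and 2.34 CPM (log2 fold change -4.42 ± 0.87 SE, adjusted p = 0.014). Of 27 cardiac transcription factors and fetal genes 9 fell and 1 rose (median -1.15). Without replicate 1 of 24 h 17 of them fell, to be read against the same 2181 of 13798 genes. Tbx20, a T-box factor of the heart lineage, went from 144, 154 and 152 to 14.9, 46.9, 14.7 and 17.7 CPM (log2 fold change -2.67 ± 0.42 SE, adjusted p = 0.0077). Ppargc1a, the coactivator PGC-1α of mitochondrial biogenesis, went from 12.4, 14.5 and 20.7 to 4.26, 2.27, 1.89 and 1.87 CPM (log2 fold change -2.61 ± 0.41 SE, adjusted p = 0.0073), whereas Esrra, a nuclear receptor that works with it, rose from 33.2, 40.1 and 48.1 to 86.7, 77.5, 101 and 80.9 CPM (log2 fold change 1.10 ± 0.19 SE, adjusted p = 0.0099).

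The markers of the labelled cell type and of other cells in a heart culture moved with these groups. The labels give over 98% myocytes after preplating. All 9 matched cardiomyocyte markers were detected; together they took 0.530% to 0.933% of counts early but 0.606% and 0.179% in the 24 h replicates and 0.0218% and 0.123% in those of 48 h. Replicate 1 of 24 h thus lay inside the early range. The 11 matched fibroblast markers took 5.08% to 5.24% early and 1.73% to 3.45% late, with 1 called higher (Dcn) and 1 lower (Col1a1, 26000, 26630 and 27610 to 12620, 15090, 4727 and 10660 CPM). Neither list had a marker at 0 in all late or all early libraries. In every library the fibroblast list took a larger share of counts than the cardiomyocyte list. The share of myocytes that the labels give was not tested. These bulk shares cannot tell fewer cells of a type from less of its RNA per cell, here or in any list above.

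Falls were also found among markers of other cell types. Smooth muscle markers fell in 7 of 10 cases (0.411% to 0.498% of counts early, 0.0350% to 0.143% late; median -2.53). Endothelial markers fell in 5 of 10 (0.0399% to 0.0451% against 0.0168% to 0.0214%; median -1.68), and epicardial and mesothelial markers in 4 of 10 (0.0413% to 0.0452% against 0.00978% to 0.0256%; median -1.50). Macrophage markers fell in 5 of 12 (median -2.11), but their share overlapped, at 0.0971% in DMSO and 0.0277% and 0.0381% in rosiglitazone 0.5 h against 0.0167% to 0.0437% late. None of these 5 macrophage calls was lasting. Without DMSO 0 of the 12 fell, where 323 of all 14341 genes did. Among the smooth muscle, endothelial and epicardial falls, 1 in each list was a lasting call. No marker of these lists was at 0 in all late libraries, and the epicardial gene Muc16 (5.64, 5.61 and 3.37 CPM early) had counts in 1 late library only.

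Notch3, a receptor of mural cells, went from 190.1, 239 and 175 to 27.8, 69.6, 36.6 and 45.3 CPM (log2 fold change -2.17 ± 0.30 SE, adjusted p = 0.0057), and Tie1, an endothelial receptor, from 35.4, 33.6 and 44.7 to 15.1, 8.87, 7.47 and 14.2 CPM (log2 fold change -1.74 ± 0.30 SE, adjusted p = 0.0094). Glial and neural markers fell in 1 of 7 cases (Tubb3, 54.9, 46.8 and 49.1 to 10.8, 3.64, 5.39 and 5.902 CPM), with Gfap at 0 in all late libraries. Red blood cell markers passed in 0 of 4 cases by edgeR, with 0 at an unadjusted p under 0.05 and 0 by DESeq2 (Hbb 44.3, 77.5 and 149 against 176, 91.9, 71.3 and 194 CPM), with Ahsp at 0 in all late libraries. The part of other cells in the falls of matrix, adhesion, YAP and SRF and cell cycle genes was not tested.

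**Figure D4:**
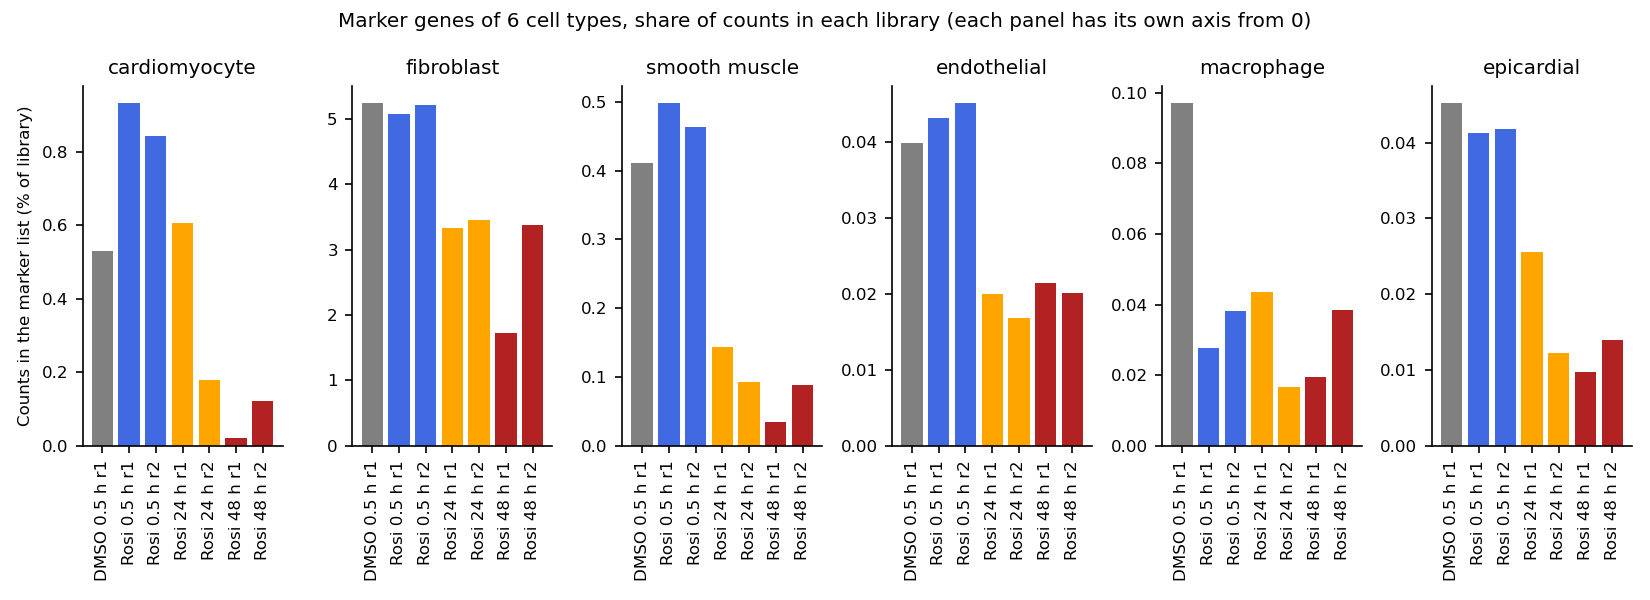
Share of each library's counts (%) in 6 marker lists, 1 bar per library, each panel with its own linear axis from 0. Smooth muscle, endothelial, epicardial and fibroblast markers are lower in all 4 late libraries, while the cardiomyocyte and macrophage shares overlap between late and half-hour libraries.

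The 2 late times did not hold the same levels for many genes. Both 48 h libraries lay further from the half-hour mean than both 24 h libraries in 723 of the 2387 genes past the threshold (30.3%, against 21.4% of all genes tested), and both 24 h libraries lay further in 128 (5.36%, against 9.56%). Pvalb, Star, Mt1, Mt2A, Rsad2, Vat1l, Ces1f and Ret were of the first kind. Cyp1a1, Egr1, Edn1, the phosphatase Dusp1, the kinase Plk2 and the ER genes Dnajb9 and Sdf2l1 were of the second. Sdf2l1 went from 26.04, 20.6 and 18.9 CPM to 110, 87.03, 40.9 and 74.8 CPM (log2 fold change 1.84 ± 0.33 SE, adjusted p = 0.011).

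The place of the DMSO library was counted against both rosiglitazone libraries of 0.5 h. Among the 2387 genes it lay nearer to the late level than both rosiglitazone libraries of 0.5 h in 743 (31.1%), further from it than both in 754 (31.6%) and between or equal in 890. Over all genes tested the shares were 30.8% and 32.2%. Angptl4, Mt1 and Mt2A were nearer in DMSO, as given above, and so were Fos and Egr1 among the falls.

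**Figure D5:**
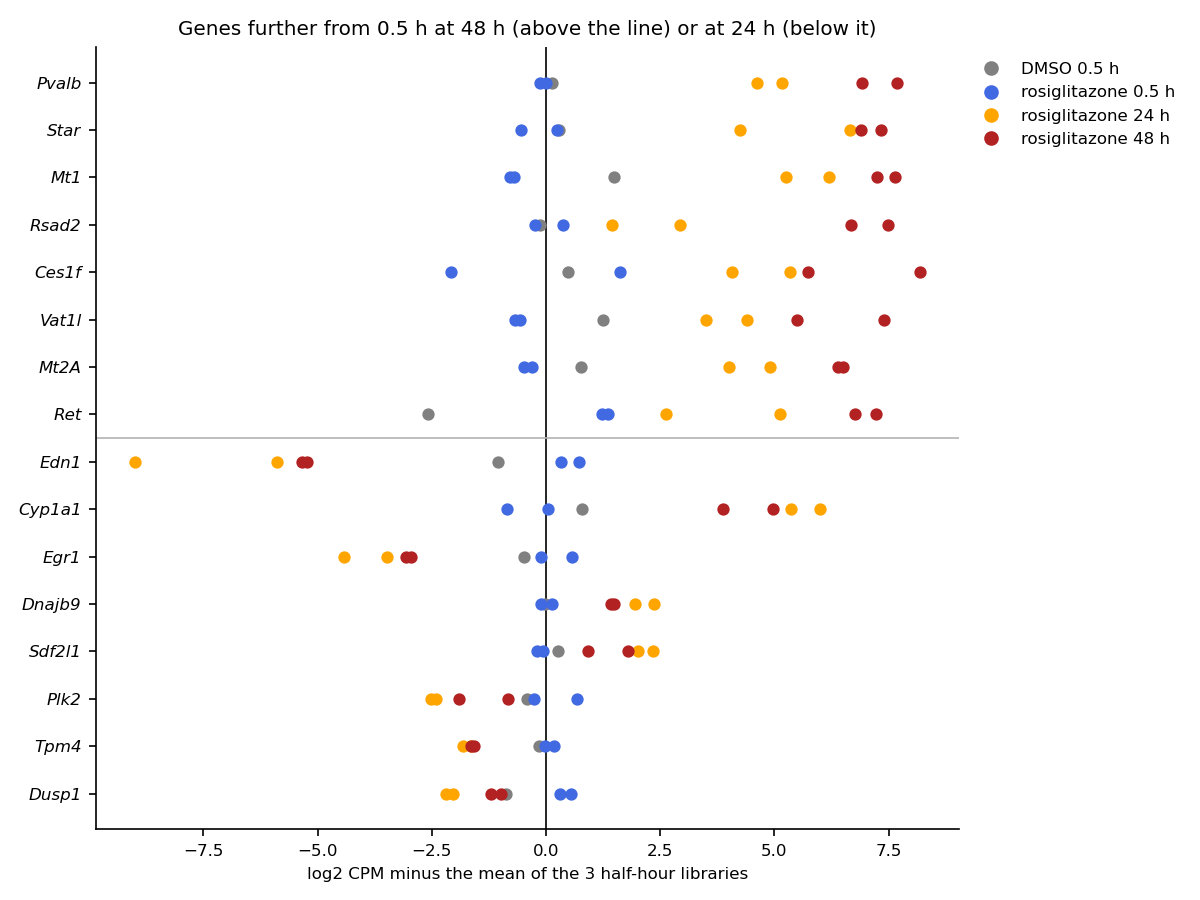
Log2 CPM of 16 named genes in each library (colours as in the key) minus the mean of the 3 half-hour libraries. Above the grey line both 48 h libraries lie further from 0 than both 24 h libraries; below it the reverse holds, as for Cyp1a1 (24 h further up) and Egr1 (24 h further down).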

How the data were processed

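Messenger RNA of cultures labelled as neonatal rat heart muscle cells was sequenced. Libraries were made with a directional kit, per the labels' protocols. HTSeq, DESeq2, cutadapt 1.11 and FastQC 0.11.5 are named in the submitters' processing notes, with the builds Rnor_6.0 and hg19. Which aligner was used, and whether counting used strand, is not given in the sources used here, so reads of overlapping or antisense genes may be shared. The tables deposited by the authors hold raw counts per gene and sample, for 32545 genes in 33005 entries, of which 460 repeat a gene.

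The 2 splits of each library were summed, giving 7 libraries of 10886559 to 28074620 counts. A count of 0 allows up to 3 counts, 0.107 CPM in the deepest and 0.276 CPM in the shallowest library, for counting error only. Late libraries were compared with half-hour libraries in edgeR 4.0.16 (R 4.3.3) with TMM scaling, the tool's filter on low counts and a robust quasi-likelihood fit. The fit had 13943 genes and 5 residual degrees of freedom. Its median prior degrees of freedom were 3.63, and the common biological coefficient of variation was 0.469. SE is the absolute log2 fold change divided by the square root of the F statistic. Benjamini-Hochberg adjustment covered all genes tested.

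Of 874 entries in 39 gene lists 855 matched a gene and 824 were tested. The libraries compared and the lists were chosen with earlier results of these data known. Genes named were the 12 largest rises and 12 largest falls among genes past the threshold with no overlap between groups, a mean of at least 5 CPM in a group and an official symbol. Added were up to 3 genes each way from each list by adjusted p, the 2 with the smallest p where a list had none, and a set of PPAR, stress and heart genes. Not every gene the rule names is printed. Acadl, Acot1, Ahr, Ahrr, Aldh3a1, Lmnb1, Myom1 and Nfu1 were added after their values were seen. Alternatives were DESeq2 1.42.0, other size factors and filters, 4 groups in 1 fit, the replicate number as a block, each split, splits as replicates, each late time alone, other thresholds and leaving out each library. No promoter or other sequence is shown, and none was used here.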

Additional observations from a re-analysis of the deposited data

Results flagged for a closer look

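Each of the 145 named genes was checked for a late library that stood apart from the other 3, by Dixon's criterion for 4 samples. The criterion marks about 1 in 20 groups when all 4 values come from 1 normal distribution, and 17 of the 145 were marked. That rate need not hold here, since 2 late times were pooled and many of the genes were picked for large changes. Carns1, Ercc6l, Reps2, Pkd1l1 and Muc16 had no count in 3 late libraries, so their mark was fixed whatever the level of the other library. The value given is that of the library apart.

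Replicate 1 of 48 h stood apart above the others for the carboxylesterase gene Ces1f (187.8 CPM), the hemopexin gene Hpx (383.8 CPM), the chemokine gene Cxcl3 (550.1 CPM) and the cell cycle inhibitor Cdkn2b (298.8 CPM). It also held the 1 nonzero late level of Reps2 (0.1821 CPM).

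Replicate 1 of 24 h stood apart above the others for Carns1 (0.3954 CPM), Ercc6l (1.889 CPM), the M-band gene Myom2 (34.75 CPM), Ppargc1a (4.262 CPM), Insig1 (193.0 CPM), Bcl2 (2.153 CPM) and the β-myosin gene Myh7 (719.9 CPM), and below them for Hspd1 (631.3 CPM).

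Replicate 2 of 24 h stood apart above the others for Itga11 (2.614 CPM) and Tbx20 (46.94 CPM). Replicate 2 of 48 h, the shallowest library, held the 1 nonzero late level of Pkd1l1 (0.4684 CPM) and of Muc16 (0.09368 CPM, below the limit of 3 counts).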

How the results depend on the processing

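No gene past the threshold changed sign under any alternative run. DESeq2 called 3590 genes (1680 higher, 1910 lower), among them 2386 of the 2387 (all but Ercc6l). Fitting 4 groups gave 1547 calls, 544 higher and 1003 lower. The 24 h libraries alone gave 811 (285 higher, 526 lower), and the 48 h libraries alone 4643 (2053 and 2590, with 3979 and 4733 genes without overlap). Splits counted as replicates gave 6654 (3419 and 3235). A threshold of 0.01 gave 477 (205 and 272), and 0.1 gave 3680 (1845 and 1835). Other size factors, filters and single splits kept these counts over all genes within 1.5 times, but not those of every list. With no filter, for example, 899 of all 18511 genes rose and 1091 fell. In that fit mitosis genes fell in 14 cases, ATF4 genes rose in 8, interferon genes in 2, chemokines in 1 and clock genes in 0, and 1 sarcomere gene fell. Leaving out each library in turn gave 366 to 4013 calls, 129 to 1832 higher and 237 to 2181 lower; the causes were not tested. The replicate differences of the groups had correlations of -0.128, 0.076 and -0.154. With 2 libraries per group these cannot show whether equal replicate numbers pair the libraries. The fit with a replicate block gave 1386 calls, 632 higher and 754 lower, 1376 of them shared. The shallowest library, with 10886559 counts, limits genes near 0.276 CPM.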

Other observations

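Gene families grouped by the beginning of their symbols were counted after their values had been seen, so the counts are a description. Over all genes tested 8.47% rose and 8.65% fell. Other families counted lay nearer to these shares, such as solute carriers (12.2% rose, 7.32% fell) and ABC transporters (8.57% and 11.4%). Zinc finger Zfp genes lay below them (3.17% and 4.58%). Subunits of the vacuolar proton pump (V-ATPase), which acidifies lysosomes, rose in 10 of 21 cases and none fell in the edgeR test (median log2 fold change 0.62). Glutathione transferases rose in 7 of 16 (median 1.01) and tRNA synthetases in 9 of 33 (median 0.46, with 32 positive). Mitochondrial ribosomal proteins rose in 11 of 74 (14.9%, median 0.45, with 70 positive).

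Septins, which form filaments at the division furrow, fell in 5 of 9 cases (median log2 fold change -0.61), and kinesin motors in 13 of 35 with 1 rise (median -0.68). Secreted ADAMTS proteases fell in 9 of 23 with 1 rise (median -1.17) and collagens in 10 of 38 (median -1.28, with 37 negative). Protocadherins fell in 6 of 44 (13.6%, median -1.13, with 43 negative). The interferon-inducible gene Samd9l moved against the interferon genes that rose: it was at 30.3, 26.2 and 31.7 CPM in the half-hour libraries and 4.13, 3.599, 3.13 and 2.72 CPM in the late ones.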
